A study of Homo sapiens with 9 samples.

Results

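The genes described here are 46 integrin and focal adhesion genes, taken by name from a list of members out of 20848 genes counted. They comprise 16 integrin chains (11 alpha and 5 beta) and 30 adaptors, kinases, caveolins and other adhesion proteins. The cells were U251, an established human glioblastoma line. The RNA-seq groups were 3 control libraries, titled WT, and 3 libraries with MSI1 knocked down. A further group of 3 iCLIP samples came from WT cells, with RNA crosslinked to MSI1 recovered by a rabbit monoclonal antibody. The labels do not give the knockdown reagent, what the control cells received, or whether replicates were separate cultures, so p-values measure the spread between these libraries, which may be technical. Only 1 cell line was used, and the protocol text given for all 9 samples describes iCLIP and speaks of replicates being combined for sequencing.

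Integrins are transmembrane receptors made of 1 alpha and 1 beta chain that bind matrix proteins such as fibronectin, collagens and laminins. Beta 1 pairs with many alpha chains, while beta 3, beta 5 and beta 8 pair with alpha V. Inside the cell, talin and kindlin switch integrins on, and vinculin, paxillin, zyxin and alpha-actinin tie them to actin. Focal adhesion kinase, encoded by PTK2, and SRC signal from these sites. MSI1 is an RNA-binding protein that recognises short UAG-containing motifs, often in 3′ UTRs, and is best known for regulating translation.

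MSI1 itself had 726, 688 and 244 counts in control libraries 1, 2 and 3, and 134, 195 and 90 in knockdown libraries 1, 2 and 3. The groups did not overlap, with a log2 fold change of −1.97 and an adjusted p of 0.0699, and an adjusted p of 0.00279 when the replicate number was a block. Gene counts per library totalled 32919299 to 47277016. Control library 3 stood apart on the first principal component. The list of 9 astroglial and glioma markers summed to 6734 to 7933 CPM (normalised read counts, scaled to library size by TMM) in controls and 6420 to 7426 CPM in knockdown libraries, led by CD44 and VIM, with GFAP at 65.2 and S100B at 1.5 CPM in controls and AQP4 at 0, 2 and 0 counts there. None of these glial markers was called by edgeR without the block. With it SLC1A3, SOX9 and FABP7 were called higher (adjusted p 0.0130, 0.0143 and 0.0171). The groups did not overlap for SLC1A3 and FABP7, which were higher, and for CD44, which was lower and not called. Lists for other cell types were also measured. The 5 neuronal markers summed to 999 to 1356 CPM in controls and 1085 to 1391 CPM in knockdown libraries, nearly all NEFL, with STMN2 at 0. The 5 epithelial markers summed to 299 to 482 and 372 to 505 CPM, nearly all KRT8 and KRT18. The 6 measured leukocyte markers summed to at most 8.47 CPM in any library, with CD3E at 0. The 6 endothelial markers did not overlap between groups, at 13.5 to 14.6 CPM in controls and 22.1 to 25.5 CPM in knockdown libraries, nearly all KDR. The 6 fibroblast and pericyte markers did not overlap either, at 34.2 to 70.7 and 104 to 186 CPM, with COL1A1 the main gene and DCN at 0.109 CPM in controls. No marker of these other cell types passed the test without the block, and KDR, SNAP25, COL1A1, PDGFRB and ITGB2 were called higher with it; their part in the adhesion results was not tested.

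Of the 46 members, 45 had enough reads to be tested, and LIMS2 (7, 6 and 1 counts in controls, 8, 7 and 3 in knockdown) did not. The changes of 4 members passed the test (edgeR's quasi-likelihood test, adjusted p of at most 0.05 over 13856 genes): LPP and CAV2 rose, and ITGB1 and PTK2 fell. Over all tested genes 1.67% were called, 0.772% higher and 0.902% lower. Same-numbered control and knockdown libraries deviated together for numbers 2 and 3, and less clearly for number 1. These deviations are not independent of each other and cannot settle whether the libraries were paired. With the number as a block 17 members were called, 12 higher and 5 lower. In that fit 17.3% of all genes were called, 7.04% higher and 10.3% lower. The groups did not overlap in 17 members, 13 higher and 4 lower in knockdown, against 22.8% of all genes (8.73% higher, 14.1% lower). The median log2 fold change of the tested members was 0.17 and that of all genes −0.04. In bulk RNA, fewer cells of a type and less RNA per cell cannot be told apart.

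**Figure D1:**
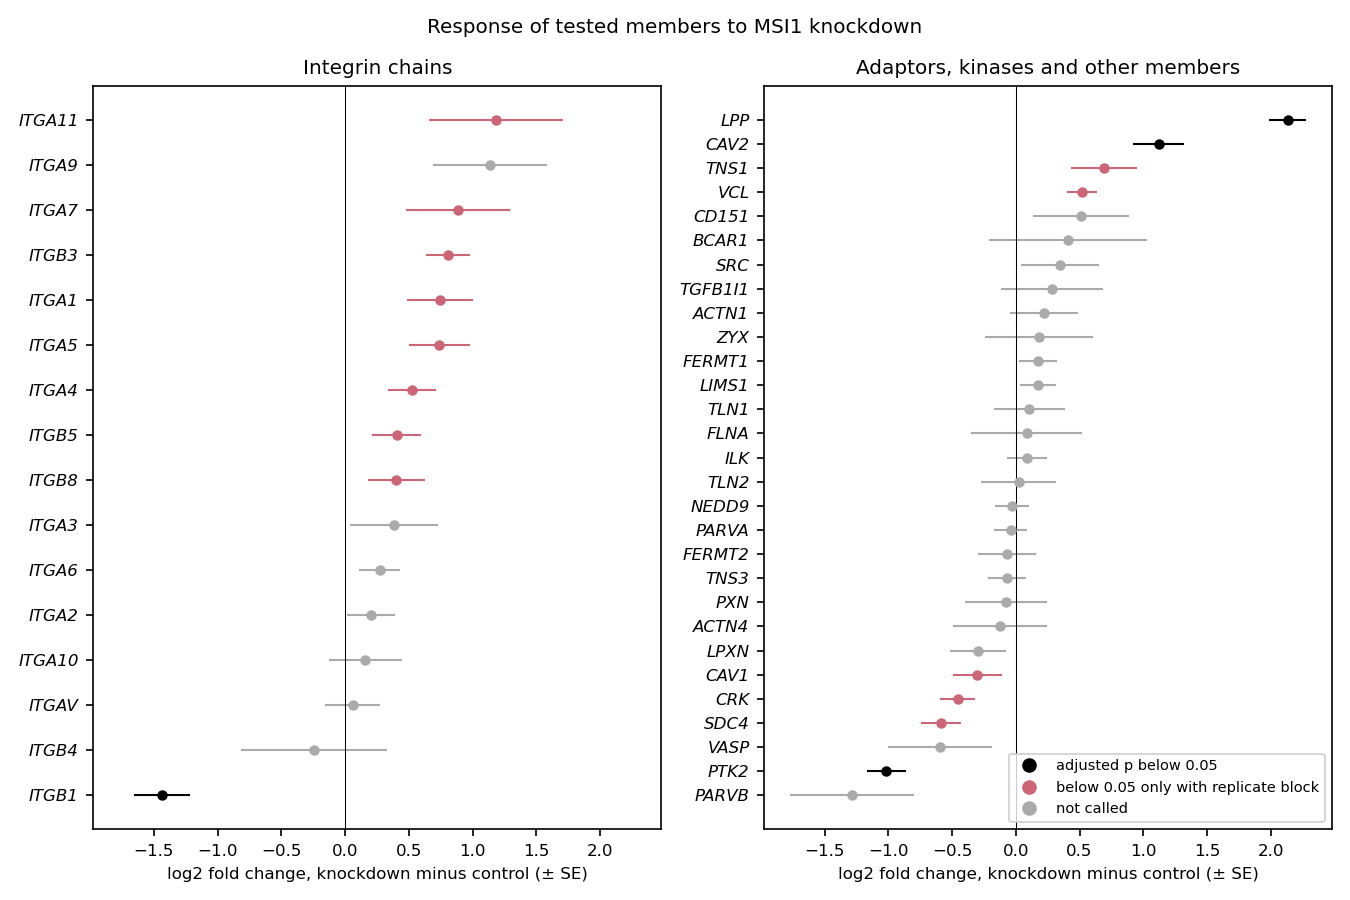
Log2 fold change of each tested member (knockdown against control) with its standard error, integrin chains on the left and all others on the right; black marks genes called by edgeR without the block, red with it but not without, grey neither. LPP lies highest at 2.13 and ITGB1 lowest at −1.43, and all 11 alpha chains lie above 0.

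ITGB1, the beta 1 chain on chromosome 10 (hg18, 33229252 to 33287299, minus strand), fell. Its level was 627, 549 and 913 CPM in control libraries 1 to 3 and 277, 216 and 281 CPM in the knockdown libraries. Every knockdown library was below every control. The means were 696 ± 192 and 258 ± 36.3 CPM (SD, n = 3 each), a log2 fold change of −1.43 (SE 0.22) and an adjusted p of 0.0302. Per kilobase of exon it was the highest beta chain in controls, at 132 ± 36.5 CPM, and stood at 49.0 CPM in knockdown cells, where each library lay below its own value for ITGB8.

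The 3′ UTR of ITGB1 (GENCODE 29, 1323 bases) holds 4 Musashi words. The words searched, on the transcript's strand only, were GTAGT or ATAGT, the forms with another T before the A of the core (GTTAGT or else ATTAGT) and the longest forms (GTTTAGT or else ATTTAGT), and a match is a description of letters, not a binding site. They are shown because ITGB1 was the only integrin chain to pass edgeR's test without the block, with each word in capitals and its UTR position counted from the first base after the stop codon:
ITGB1 position 122: tagcaatttccATAGTcacagttaggt
ITGB1 position 391: ttgaaagggcaATAGTtaaagtaatga
ITGB1 position 622: atacgtttgaaATAGTtgatctacaaa
ITGB1 position 1080: tcttactttgaGTTAGTgccataacaga
Of 12704 tested genes with a matched UTR, 74.5% held at least 1 of the words, and 31 of 45 members did (68.9%). Per kilobase of UTR the median was 1.62 words over all genes and 1.28 over members, and ITGB1 had 3.02.

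Of the other beta chains none passed edgeR's test without the block, where ITGB3 had an unadjusted p under 0.05 and DESeq2 called it higher (adjusted p 0.00573), while ITGB3, ITGB5 and ITGB8 were called higher with it. ITGB3, which pairs with alpha V as a vitronectin receptor, measured 11.2, 9.38 and 12.4 CPM in controls and 18.5, 19.8 and 19.4 CPM in knockdown libraries. The groups were separate, with a log2 fold change of 0.81 (SE 0.17) and adjusted p values of 0.0731 without and 0.0146 with the block. ITGB8, the TGF-beta-activating partner of alpha V, was at 372, 369 and 590 CPM in controls and 521, 539 and 699 CPM after knockdown, which overlapped; the adjusted p was 0.468, and 0.0215 with the block. For ITGB5 the log2 fold change was 0.40, and the adjusted p of 0.394 became 0.0396 with the block. ITGB4, the laminin-binding partner of alpha 6, was at 240, 242 and 51.7 CPM against 176, 194 and 81.7 CPM, so that both libraries numbered 3 were low, and its adjusted p was 0.904.

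None of the 11 alpha chains passed edgeR's test without the block, where 4 had an unadjusted p under 0.05, and DESeq2 called 0. All 11 had log2 fold changes above 0 (median 0.53, 0.06 to 1.18), as did 6293 of all 13856 tested genes. ITGAV, the lowest of the 11, turned to −0.07, −0.02 and −0.03 without control library 1, control library 2 or knockdown library 3. With the block 5 were called higher and none lower: ITGA1, ITGA4, ITGA5, ITGA7 and ITGA11. Over all genes 7.04% were called higher with the block and 10.3% lower. ITGA5, whose pairing with beta 1 forms the fibronectin receptor, was at 103, 102 and 62.2 CPM in controls and 150, 177 and 120 CPM in knockdown libraries. Its lowest knockdown value was above its highest control value, with a log2 fold change of 0.74 (SE 0.24), an adjusted p of 0.188 and 0.00695 with the block. ITGA4, which binds fibronectin and VCAM1, measured 93.6, 77.6 and 120 CPM against 137, 126 and 157 CPM. These groups were separate too (log2 fold change 0.53, adjusted p 0.237, blocked 0.0126); ITGA4 shares 1066 exonic bases with CERKL on the opposite strand, and no source used here gives the counting's strand setting.

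The collagen receptor chain ITGA1 measured 3.51, 2.98 and 4.51 CPM in controls and 5.36, 5.27 and 7.80 CPM in knockdown libraries. Its groups did not overlap, with an adjusted p of 0.221 and 0.0243 with the block; 113 of its exonic bases lie in PELO on the same strand. The laminin-binding ITGA7 was at 15.2, 14.2 and 5.32 CPM in controls and 19.8, 28.4 and 16.2 CPM in knockdown (adjusted p 0.364, blocked 0.0397). ITGA11, another collagen receptor chain, stayed at or below 1.99 CPM in every library (0.862, 0.797 and 0.218 against 1.48, 1.99 and 0.880 CPM; log2 fold change 1.18, adjusted p 0.341, blocked 0.0413). ITGA9 was also separate between groups at under 1 CPM, with an adjusted p of 0.277 and 0.0696 with the block.

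In controls the alpha chains ranked, per kilobase of exon, ITGA3 (120 ± 50.1 CPM), ITGAV (41.8 ± 10.9), ITGA6 (22.6 ± 4.28), ITGA5 (21.0 ± 5.48) and ITGA4 (16 ± 3.55), all SD with n = 3. The order of ITGA6 and ITGA5 turned between libraries, as did that of ITGA5 and ITGA4, while ITGA6 was above ITGA4 in each of the 3. ITGA2, ITGA7 and ITGA1 followed at 5.88, 2.62 and 0.765 CPM per kilobase, and ITGA10, ITGA11 and ITGA9 were at 0.177 or less. ITGA3, a laminin receptor chain, was at 774, 717 and 312 CPM in controls and 853, 926 and 577 CPM in knockdown libraries, which overlapped (adjusted p 0.702). ITGAV measured 245, 267 and 391 CPM against 279, 289 and 373 CPM, also overlapping, with a log2 fold change of 0.06 (SE 0.21) and an adjusted p of 0.941.

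**Figure D2:**
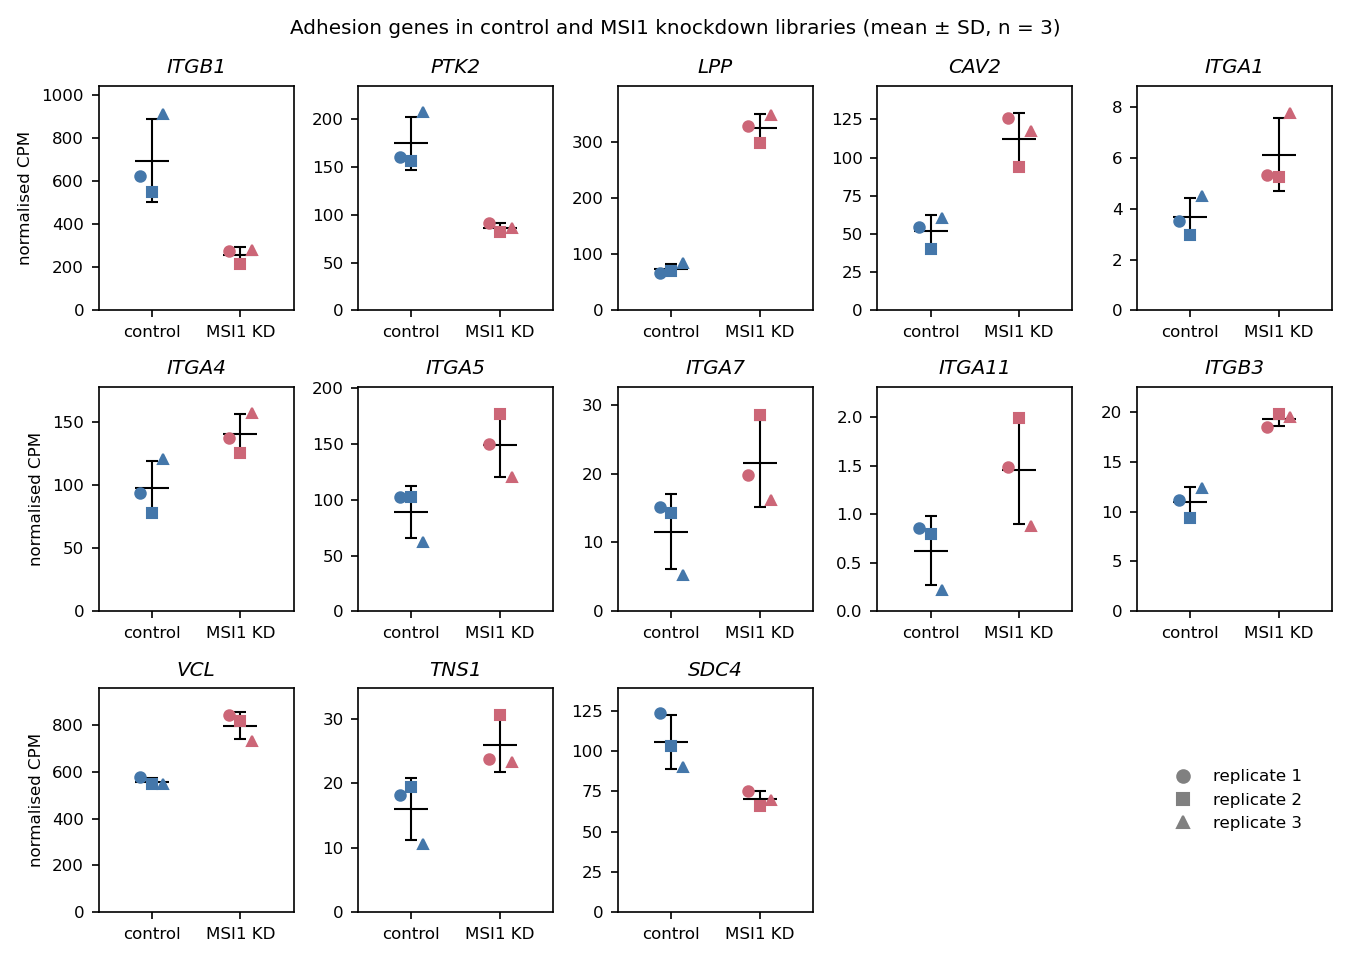
CPM of 13 members (the 4 called and those called with the block at a log2 fold change of at least 0.5) in each control and MSI1 knockdown library, with marker shape for the replicate number and bars for the mean ± SD of 3. LPP and CAV2 sit higher in all 3 knockdown libraries and ITGB1 and PTK2 lower, without overlap.

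LPP, a LIM protein of the zyxin family found at focal adhesions, had the largest fold change among the members. It lies on chromosome 3 (hg18, 189354357 to 190091153, plus strand) and measured 66.9, 70.5 and 83.8 CPM in controls and 327, 297 and 346 CPM in knockdown libraries. Each knockdown value was well above every control value. The means were 73.7 ± 8.87 and 323 ± 25.0 CPM (SD, n = 3), 4.39-fold higher, with a log2 fold change of 2.13 (SE 0.14) and an adjusted p of 0.00478. Its relative zyxin, ZYX, was at 170, 161 and 54.9 CPM against 170, 169 and 99.0 CPM (adjusted p 0.902).

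CAV2, a caveolin that assembles with CAV1 in caveolae, also rose. On chromosome 7 (hg18, 115926680 to 115935831, plus strand), it measured 54.3, 40.3 and 60.6 CPM in controls and 126, 93.9 and 117 CPM in knockdown libraries. The groups did not overlap, and the change was 2.17-fold, or 1.12 on the log2 scale (SE 0.20), with an adjusted p of 0.0448. CAV1 lies beside it on the same strand (115952075 to 115988474) and was at 649, 529 and 794 CPM against 558, 440 and 603 CPM. Those ranges overlapped, with a log2 fold change of −0.30 and an adjusted p of 0.541 (0.0372 with the block). The TACATTT word, taken from an earlier analysis of the same libraries and so no independent support, occurs in 27.9% of all UTRs, in 12 members and in the 2420-base UTR of CAV2 at these places, with the word in capitals:
CAV2 position 279: gtacaatagtaTACATTTtataatgatga
CAV2 position 2056: aacattttttaTACATTTggttatgttga
LPP held 6 copies in 16192 bases, and ITGB1 and PTK2 none in 1323 and 1566 bases. Of the members called higher only with the block, ITGA1, ITGA4, ITGB8 and VCL held the word. ITGA5, ITGA7, ITGA11, ITGB3, ITGB5 and TNS1 did not. ITGAV, called in neither fit, held 3 copies. The share of members with the word, 26.7%, was near that of all genes, and a link to the changes was not tested. Another word searched, GCAGGAA, occurred in 16.9% of all UTRs and in 6 members (13.3%). It was absent from the UTRs of ITGB1, PTK2, LPP and CAV2.

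PTK2, the focal adhesion kinase, fell. It measured 160, 157 and 207 CPM in controls and 91.2, 81.6 and 86.2 CPM in knockdown libraries (chromosome 8, hg18, 141737683 to 142080514, minus strand). No knockdown library reached the lowest control. The means were 175 ± 28.2 and 86.3 ± 4.83 CPM (SD, n = 3), a log2 fold change of −1.02 (SE 0.15), with an adjusted p of 0.0300. SRC, its partner kinase, was at 21.8, 27.0 and 12.5 CPM against 26.2, 31.7 and 20.2 CPM, which overlapped (adjusted p 0.697). The adaptor CRK, downstream of both, was at 137, 130 and 163 CPM against 105, 97.5 and 111 CPM; the groups were separate, with an adjusted p of 0.170 (0.0140 with the block).

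Leaving out 1 library at a time changed which of these 4 passed the test. LPP passed in 5 of the 6 fits and missed it without knockdown library 1 (adjusted p 0.0552). ITGB1, PTK2 and CAV2 each passed without control library 3 (adjusted p 0.000866, 0.00340 and 0.000941), where 7.31% of all genes were called. Without any other single library they missed it, at adjusted p 0.0729 to 0.202, 0.0891 to 0.210 and 0.132 to 0.224, in fits that called 0 to 10 of all tested genes. Over all 6 fits the log2 fold changes stayed near their values, at −1.58 to −1.13 for ITGB1, −1.09 to −0.81 for PTK2, 2.07 to 2.30 for LPP and 0.97 to 1.31 for CAV2. DESeq2's Wald test called all 4.

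Among the cytoskeletal linkers and co-receptors, VCL, TNS1 and SDC4 were not called by edgeR on all 6 libraries without the block and were called with it. VCL was also called by DESeq2's Wald test (adjusted p 0.0375), and VCL and SDC4 by edgeR without control library 3 (0.0291 and 0.0237). All 3 were called without both libraries numbered 3. VCL, which encodes vinculin, was at 576, 545 and 548 CPM in controls and 842, 814 and 730 CPM in knockdown libraries. The groups were well apart (556 ± 17.2 and 796 ± 58.3 CPM, SD, n = 3; log2 fold change 0.52, adjusted p 0.0806, blocked 0.00746). TNS1, a tensin that links integrin tails to actin, measured 18.1, 19.4 and 10.6 CPM against 23.8, 30.6 and 23.3 CPM, without overlap (adjusted p 0.260, blocked 0.0337). The heparan sulfate co-receptor SDC4 was lower, at 75.5, 65.8 and 69.7 CPM against 124, 103 and 90.0 CPM in controls (log2 fold change −0.59, adjusted p 0.126, blocked 0.0144).

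The most abundant members per kilobase of exon in controls were FLNA (322 ± 167 CPM), ACTN4 (220 ± 97.7), CAV1 (180 ± 36.3) and ITGB1 (132 ± 36.5), all SD with n = 3. FLNA, a filamin that crosslinks actin, was at 3629, 3495 and 1098 CPM in controls and 3093, 3587 and 2045 CPM in knockdown libraries, and ACTN4 was at 1110, 1039 and 419 against 887, 909 and 559 CPM. Both overlapped between groups, with adjusted p values of 0.959 and 0.923, and within each group both were lowest in library 3. The order turned in control library 3, where CAV1 (217 CPM per kilobase) and ITGB1 (174) were above FLNA (129) and ACTN4 (108). ACTN4 shares 339 exonic bases with CAPN12. The talin TLN1 (log2 fold change 0.11), the kindlin FERMT2 (−0.07), paxillin PXN (−0.08), ILK (0.09) and PARVA (−0.04) were not called under either fit, and 26 of the 29 tested adaptors, kinases and others were not called without the block.

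The libraries numbered 3 differed from the others along GC content. Among the 18 members whose transcripts were over 55% GC, all were lower in control library 3 than the mean of controls 1 and 2 (median log2 difference −1.31, −2.71 to −0.25). All 13 members at or below 45% GC were higher there (median 0.47, 0.13 to 0.67). Across the 45 members this difference had a Pearson correlation of −0.87 and a Spearman correlation of −0.89 with GC, and over 12980 tested genes −0.84 and −0.86; genes within a library are not independent. Knockdown library 3 followed the same pattern (−0.84 and −0.86 over members). The difference of knockdown from control had the opposite sign, with correlations of 0.06 and 0.11 over members and 0.28 and 0.33 over all genes. Leaving out both libraries numbered 3 gave 16 called members, 11 higher and 5 lower, against 12.1% of all genes.

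**Figure D3:**
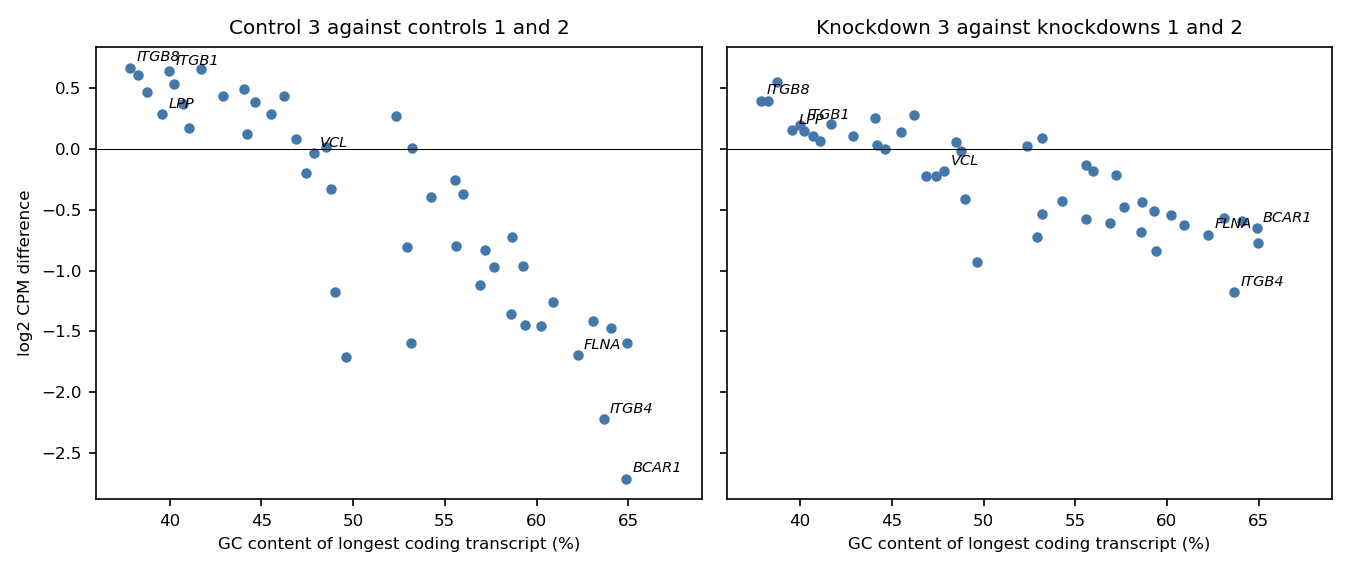
Log2 CPM difference of library 3 from the mean of libraries 1 and 2, against transcript GC content (%), with 1 point per member, for controls on the left and knockdown libraries on the right. Both panels slope down (Pearson −0.87 and −0.84).

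Exon counts were used to ask whether any member shifted exon use after knockdown. Of 789 tested member exons in 41 members, none was called and none had an unadjusted p under 0.05 (edgeR diffSpliceDGE). Over all 123109 tested exons 0 were called (0%) and 0.214% had an unadjusted p under 0.05. That share is far smaller than a threshold of 0.05 gives when no exon changes. The test was thus conservative here, and the lack of calls cannot exclude shifts in exon use. With the block 15 member exons had an unadjusted p under 0.05 and none was called, against 10 of all exons (0.00812%). The lowest member p was for exon 5 of 10 in NEDD9, an adaptor of the BCAR1 family, whose share of the gene's exon counts was 0.481, 0.725 and 0.767% in controls and 1.23, 0.705 and 1.5% in knockdown libraries; these overlapped, with an unadjusted p of 0.0545 and an adjusted p of 1.

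The exons of the called genes moved together. The log2 ratio of exon counts between groups ran from −1.49 to −0.98 over 16 tested exons of ITGB1, from −1.19 to −0.51 over 32 of PTK2, from 1.34 to 2.35 over 10 of LPP and from 0.95 to 1.30 over 3 of CAV2. Every tested exon of the 4 genes thus had the sign of its gene. ITGB1's last exon held 25.3, 23.5 and 29.5% of its exon counts in controls and 25.3, 25.1 and 25.9% in knockdown libraries, which overlapped.

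**Figure D4:**
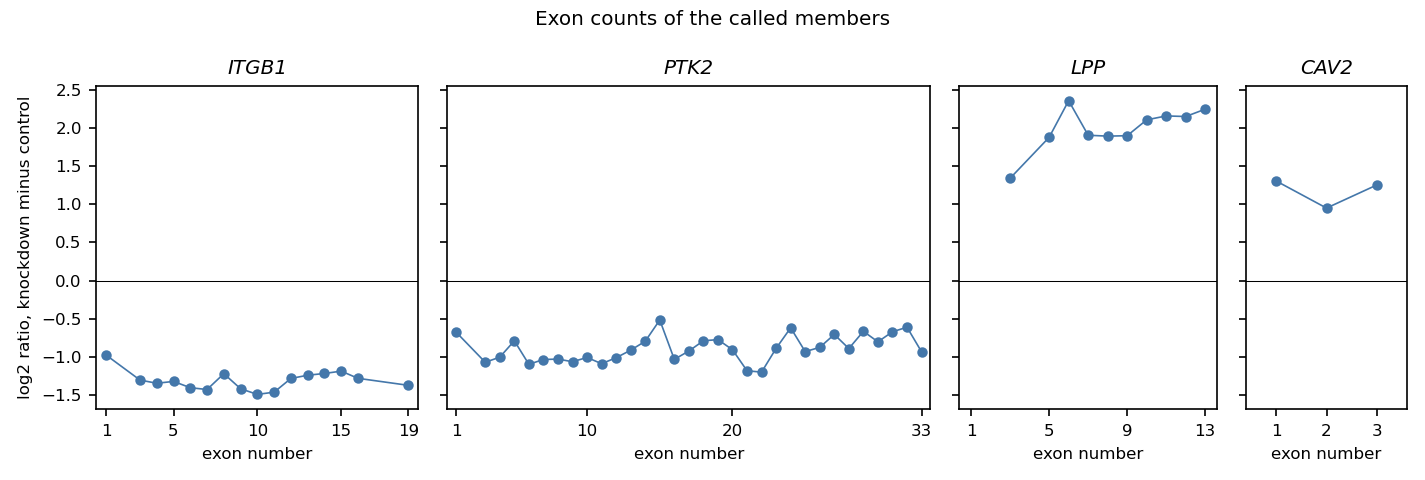
Log2 ratio of exon counts (knockdown minus control) along the exons of ITGB1, PTK2, LPP and CAV2, numbered from 1 in the direction of transcription; untested exons have no point. All tested exons of ITGB1 and PTK2 lie below 0 and all of LPP and CAV2 above it.

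The iCLIP lists held 1746795, 145718 and 208722 sites, each with the authors' p, and no control immunoprecipitation or knockdown iCLIP was used here. A total of 4446 positions appeared in all 3 lists. Of the 46 members, 12 had such a shared site and 8 had one in an exon, over 39 sites of which 26 were exonic; of all 20848 genes, 1063 had a shared site and 394 an exonic one. Only 13856 of the 20848 genes had enough reads to be tested, against 45 of the 46 members. These shares are therefore not matched for expression, and no share among similarly expressed genes was counted. All 26 exonic sites were in last exons, where 1913 of 2049 exonic shared sites of all genes lay. Across 45 members, exonic sites per kilobase in the largest list followed control level per kilobase (Spearman 0.76, given as a description).

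ITGAV held the most sites shared by all 3 lists, 13, all in its last exon (exon 31, 3704 bases, chr2:187250169-187253872, plus strand, hg18). Counted from the exon's start they lay from base 785 to 2063, and 11 of them fell within 150 bases, from 920 to 1069. The authors' p at these sites ranged from 8.17e-05 to 0.821. The 3609-base UTR of ITGAV held 23 Musashi words, 6.37 per kilobase, the highest density among the members. The 7 words of the GTTAGT and ATTAGT forms are shown because ITGAV held the most sites shared by all 3 lists; positions are in the GENCODE 29 UTR and were not converted to hg18:
ITGAV position 718: ctatactaaaaATTAGTtccataatcac
ITGAV position 956: cagagtttttaGTTAGTattaatttatt
ITGAV position 1283: ttctgaagttcGTTAGTataaattactt
ITGAV position 1749: tatagatttttATTAGTagcttgaaaga
ITGAV position 1870: ccaatcagtaaGTTAGTctataacaaat
ITGAV position 2543: aaggtaaaacaATTAGTcaaaatattat
ITGAV position 3527: acttgatttgaGTTAGTgaaaactggta
Leaving out 1 list gave ITGAV 20, 52 and 30 shared sites (without list 1, 2 and 3), and TNS3, whose sites were mostly intronic, then had 6, 57 and 22. GTTAGT occurred in 23.2% of all UTRs and in 11 members, and ATTAGT in 29.6% and in 9 members. With 13 shared sites, ITGAV RNA had overlapping groups (adjusted p 0.941), and its last exon held 44.0 ± 4.38% of its exon counts in controls and 44.3 ± 2.94% in knockdown libraries (SD, n = 3).

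**Figure D5:**
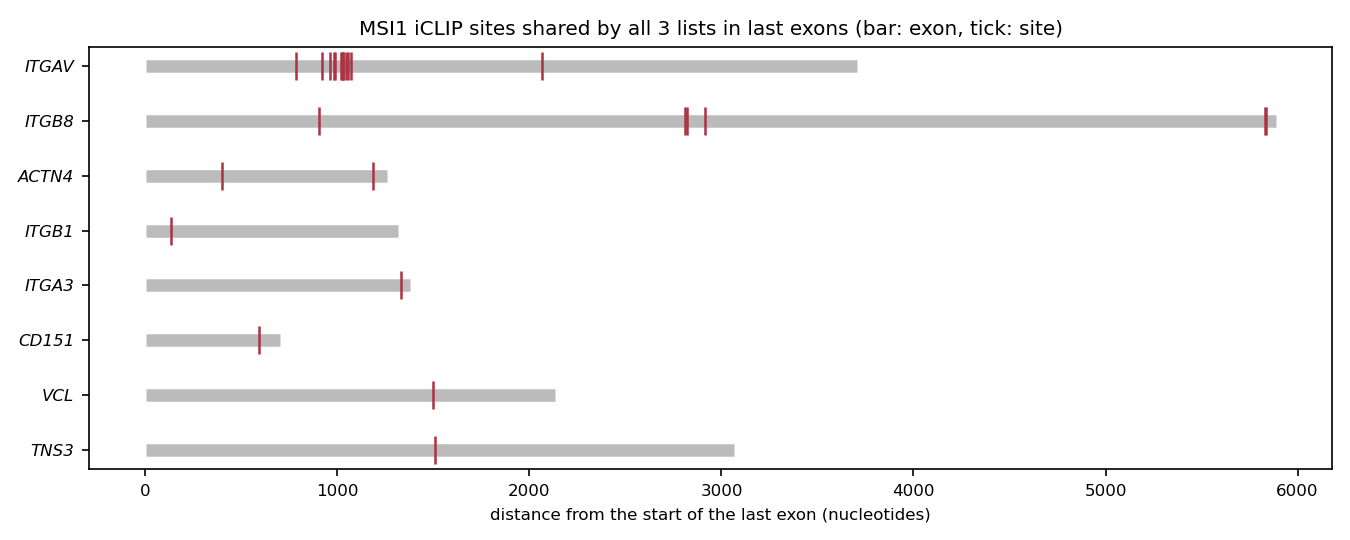
Shared iCLIP sites of members along the last exon, as distance from the exon's start (bases), for the 8 members with exonic shared sites; grey bars are exons and red ticks sites. Of the 13 ITGAV sites 12 lie between 785 and 1069, and the 6 ITGB8 sites spread from 905 to 5837.

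ITGB8 followed with 6 shared sites in its last exon, and ACTN4 had 2, while ITGB1, VCL, ITGA3, CD151 and TNS3 had 1 exonic site each. These counts and their order moved with the lists required: without list 2, exonic sites numbered 32 in VCL, 19 in ACTN4 and 18 in ITGB8. ITGB1's site was 135 bases into its 1318-base last exon. The lowest authors' p in any list was 0.00879 at the ITGB1 site and 0.0456 at the ACTN4 sites. It was above 0.05 for the others: CD151 (0.0628), ITGB8 (0.0721), ITGA3 (0.0942), TNS3 (0.180) and VCL (0.204). PTK2 and LPP held no shared site. Their sites in lists 1, 2 and 3 lay mostly in introns. PTK2 had 1478, 154 and 166 sites, of which 24, 2 and 4 were exonic. LPP had 2494, 158 and 236, of which 115, 5 and 32 were exonic. PARVB, with 5 shared sites, ITGA2 and SRC, with 2 each, and ITGA6, with 1, had them in introns only. In PARVB 1 site had the authors' p at most 0.05 in each list, and no other member had such a site. PARVB RNA was at 1.70, 2.31 and 0.622 CPM in controls and 0.775, 0.656 and 0.478 CPM in knockdown libraries, which overlapped. Its log2 fold change was −1.28 (SE 0.49), with an adjusted p of 0.262 in edgeR's test and 0.0588 with the block. Of the 8 members with an exonic shared site, ITGB1 alone was called by edgeR without the block, and ITGB1, ITGB8 and VCL with it, while 14 of the other 37 tested members were called with the block. The median log2 fold change was 0.22 in those 8 and 0.17 in the other 37.

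The wider adhesion pathway was counted over 173 further genes, of which 157 were tested and 3 called without the block, where 1.67% of all genes were called; with the block 26 were called higher and 23 lower, where 7.04% of all genes were called higher and 10.3% lower. Among 37 tested integrin ligands, NID2, a basement membrane nidogen, rose from 2.13 ± 0.168 CPM in controls to 5.63 ± 0.656 CPM in knockdown libraries (log2 fold change 1.40, SE 0.21, adjusted p 0.0279). With the block 13 ligands were called higher and 1 lower, the latter THBS1, thrombospondin 1, at 1019 ± 282 and 449 ± 88.1 CPM (adjusted p 0.0583, blocked 0.00128). ERC1, a scaffold near adhesions, fell, at 126 ± 3.66 and 68.0 ± 4.18 CPM (log2 fold change −0.89, adjusted p 0.0225).

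The adaptor SHC1 was at 163 ± 44.2 and 336 ± 58.7 CPM (adjusted p 0.0785, blocked 0.00236). Of 21 tested genes of integrin activation and traffic, edgeR called none without the block (3 with an unadjusted p under 0.05, 0 by DESeq2), and 3 higher and 3 lower with it, among them CD82 (log2 fold change 0.94, blocked adjusted p 0.0299) and DAB2 (−0.49, blocked 0.0215). Of 10 further integrin chains only 4 could be tested; ITGB2, the leukocyte beta chain, was at 0.0600 and 0.323 CPM (adjusted p 0.0529, blocked 0.0333).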

How the data were processed

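RNA-seq counts per gene and per exon and iCLIP sites with a p-value were used as deposited by the authors, on hg18 per the submitters' processing notes; no source used here names the aligner or counter. Counts were tested in R 4.3.3 with edgeR 4.0.16 (filterByExpr, TMM, quasi-likelihood, Benjamini-Hochberg threshold 0.05), knockdown against control on group alone; CPM are TMM-normalised. Same-numbered libraries deviated together (correlations 0.32, 0.73 and 0.75), but control 1 correlated more with knockdown 2 (0.49) than with knockdown 1. Each deviation was taken from the mean of its own group, and control library 3 stood apart, so these correlations are not independent. Control 3 and knockdown 2, for instance, had −0.72. The correlations cannot settle whether same-numbered libraries were paired. A fit with the number as a block is given where it changes a call. That fit left 2 residual degrees of freedom, against 4 without the block. Exon use was tested with diffSpliceDGE. An iCLIP site is shared if its position is in all 3 lists. UTR sequences and GC came from GENCODE 29 transcripts, matched by symbol for 91.7% of tested genes. Scripts were tested on simulated data, which lacked the difference of the libraries numbered 3 and gave every exon the same fixed spread. Alternatives included DESeq2 1.42.0, other filters and leaving out libraries. Named members were those called without the block, those called with it with a log2 fold change of at least 0.5 in size, and the 4 most abundant per exon length; others were named after their values were seen. The members and gene lists were chosen with earlier results of these data known. Some results for withheld items are not reported here.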

Additional observations from a re-analysis of the deposited data

How the results depend on the processing

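The 4 called members stayed 4 with DESeq2 size factors, without a filter on low counts and with counts summed from exons; DESeq2's Wald test called 6 (5.06% of all genes). The replicate block gave 17 members and 49 further pathway genes (3 without it), and DESeq2's Wald test 11 of the latter. Leaving out 1 library at a time gave 0 to 13 members and 0 to 13 pathway genes. Alternatives chosen after seeing the data were a GC offset (19 members and 46 pathway genes, 19.1% of all genes), the GC offset with the replicate block (31 and 85, 39.1% of all genes) and leaving out both libraries numbered 3 (16 and 26, 12.1% of all genes); the GC offset also removes any GC trend between groups, and its fitted terms are not counted by the test. The log2 fold change of FLNA ranged from −0.24 (without control 3) to 0.34 over fits without 1 library, and was −0.040 with the GC offset, −0.034 with that offset and the block, and −0.044 without both libraries numbered 3. Over fits without 1 library ACTN4 ranged from −0.40 to 0.12 and ITGAX from −0.15 to 1.1, and ITGAX was −0.091 without both libraries numbered 3; the cause was not tested. No member exon was called under any of 8 alternatives. Members with an exonic shared site numbered 8, 25 with at least 2 of 3 lists, 0 with the authors' p at most 0.05 in each list, and 12 to 22 leaving out 1 list. Levels under 1 CPM, as in ITGA9 and ITGA10, rest on few counts.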
